A study of Gasterosteus aculeatus with 18 samples.

Results

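Among the genes measured in stickleback embryos at 3 levels of cortisol, 162 were picked by a rule on the intermediate level. Their value in the low dose pool lay beyond both the control and the high dose pool of the same replicate number, every time. Genes in which control mostly lay between low and high were left out. RNA was sequenced from 18 egg pools of the threespine stickleback (Gasterosteus aculeatus), a small fish studied for its adaptation to predators and habitats. Each pool held 10 wild type eggs of a clutch at 72 hours post fertilization. By their titles the pools fell into 3 groups of 6, numbered 1 to 6 in each: control at 0 µg/L cortisol, low at 5 µg/L and high at 10 µg/L. By the design text the low dose stands for what a mother passes on after meeting predators, and the high dose lies above the physiological range. The labels call the agent of both treated groups maternally derived cortisol. They do not say whether pools of 1 number came from 1 clutch or whether the clutches were separate, so the spread between pools may be partly technical.

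Cortisol is the main glucocorticoid of fish. It enters cells, binds glucocorticoid and mineralocorticoid receptors, and the bound receptors act as transcription factors that raise some genes and lower others. Fish embryos start with cortisol from the mother's egg, since their own steroid production begins later, and ABC transporters are membrane pumps that move steroids and many other compounds out of cells. The deposited table names genes by Ensembl identifier only, and the reference table at hand listed 0 of the 17253, so no gene is given a name or a role, and no sequence is shown.

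Members were chosen among 16103 genes whose mean normalised read count over the 18 pools reached 1 count per M of the mean column total, which was 11.41 M. A gene belonged to the first list when its low pool was below both other pools in 6 of 6 replicate numbers, and to the second when its low pool was above both in 6 of 6. Genes in which control lay between low and high in 5 or 6 numbers were left out, which removed 68 genes that shifted oppositely at the 2 doses. The first list then held 89 genes (0.553% of those examined) and the second 73 (0.453%). The order of the groups thus chose these genes, so their differences between the groups are given as a description. Where members are counted among the calls of a fit over all genes, the fit used the same values as the rule, and the count is no test of the members.

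The same count can be made for each group. Before the 68 genes were left out, low was the lowest group in 6 of 6 numbers for 122 genes and the highest for 108. High was the lowest for 198 genes and the highest for 304. Control was the lowest for 36 genes and the highest for 42. Both counts for low thus lay between those for control and high. They did so too with values divided by their column totals, at 72 and 159 for low, 248 and 192 for high, and 27 and 42 for control.

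Several facts of the libraries run along with these lists. The column totals of the low pools, 11.0 ± 2.50 M (SD, n = 6), were the lowest of the 3 in 5 of 6 numbers. The estimated sequencing depth went the other way. It was 11.6 ± 0.894 M reads in low libraries, 10.5 ± 0.529 M in control and 11.0 ± 0.680 M in high. Low libraries had the deepest estimate in 5 of 6 numbers. Of these, numbers 2 and 4 each include a pool whose estimate was not clear, high pool 2 and low pool 4. Against the mean of control and high the low libraries were deeper by 0.876 ± 0.631 M (SD of 6 numbers, two-sided exact sign-flip test over the numbers, p = 0.0625, and 0.125 after adjustment for 4 library measures). Low pools had fewer genes at 5 or below, at 458 ± 94.0, than control (532 ± 109) and high pools (652 ± 310). The low pool had the fewest such genes of the 3 in 4 of 6 numbers. Its count lay below the mean of the other groups in 6 of 6 numbers (exact sign-flip test, p = 0.03125, the smallest this test can give, adjusted 0.125). The 100 most abundant genes took 29.8 ± 6.85% of counts in low pools, 31.0 ± 5.83% in control and 31.5 ± 7.19% in high pools. This share was lowest in low in 5 of 6 numbers (exact sign-flip test, p = 0.156, adjusted 0.208). High pool 3 stood apart, with 1220 genes at 5 or less. Without replicate number 3 the rule gave 100 genes lowest at low, of which 81 are members, and 108 genes highest at low, of which 69 are members. Replicate number 5 stood apart in the order of its control and low pools, and without it the rule gave 354 and 298 genes, of which 87 and 65 are members. The labels are used as given, and whether those of the control and low pools of number 5 are right was not tested; the values of that number and the sizes of both lists depend on it.

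The 89 genes lowest at the low dose were moderately lower there and, averaged over the numbers, nearly equal in control and high pools. The rule had left out 33 other genes lowest at low in which control mostly lay between low and high. The near equality is thus partly set by the choice. Within single numbers control and high differed, as given below. The median of their mean differences was -0.33 on the log2(value + 1) scale for low minus control and -0.35 for low minus high, against 0.0020 and 0.0066 over all 16103 genes. That is a 1.26-fold and a 1.27-fold lower level. The members ranged from -0.096 to -1.69 against control. In 16 of 89 the low pools lay more than 0.5 below the mean of control and high, and in 2 more than 1 below. The median count over the 89 genes was 521 in a control pool, 414 in a low pool and 522 in a high pool, each a mean over 6 pools. Together the 89 genes took 0.692 ± 0.101% (SD, n = 6) of a control pool's counts. The share was 0.559 ± 0.0449% in low pools and 0.691 ± 0.0590% in high pools. In bulk pools fewer cells of a type and less RNA per cell cannot be told apart.

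ENSGACG00000009775 had the widest smallest gap between its low value and the nearer of the others. Its normalised read counts in control pools 1 to 6 were 41, 33, 75, 35, 45 and 42. In low pools they were 6, 23, 52, 21, 34 and 0, and in high pools 40, 55, 90, 83, 46 and 28. Low pools 1 and 6 were close to or at 0, whereas low pool 3 exceeded 5 of the 6 control pools, so the groups overlapped as wholes and parted only within numbers. The mean was 45.2 ± 15.3 (SD, n = 6) over control pools, 22.7 ± 18.9 over low pools and 57.0 ± 24.6 over high pools. Within a number, low minus the mean of control and high ran from -0.41 in number 5 to -5.14 in number 6 on the log2(value + 1) scale.

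ENSGACG00000004396 was a gene of low abundance with the same order. Control pools 1 to 6 had counts of 14, 18, 28, 18, 37 and 19. Low pools had 4, 13, 15, 14, 27 and 12, and high pools 17, 17, 21, 25, 31 and 14. All 3 groups were highest in number 5, and the low pool stayed under the others there too. Its means of 22.3 ± 8.55, 14.2 ± 7.41 and 20.8 ± 6.27 put control 1.58-fold and high 1.47-fold above low.

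**Figure D1:**
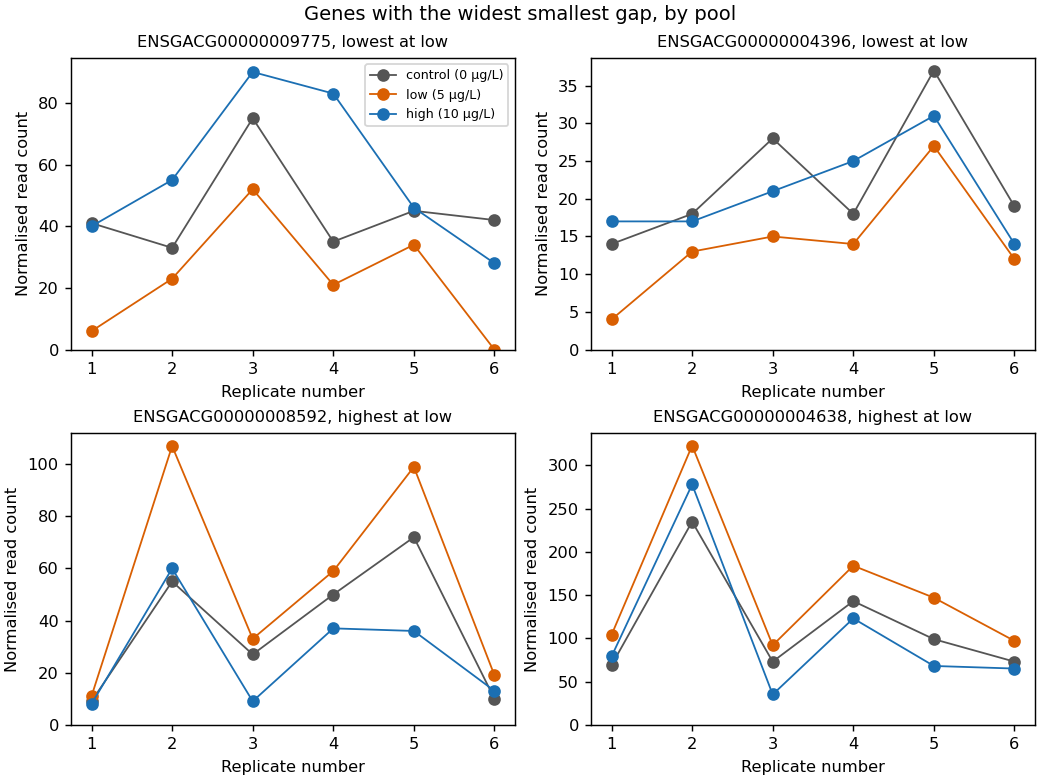
Normalised read counts (vertical axis, from 0) of the 4 genes with the widest smallest gap, against replicate number, with 1 point per pool and lines joining the pools of a group. The low pools (orange) lie below the control and high pools of the same number in the upper panels and above them in the lower panels, while levels differ between numbers, as in ENSGACG00000004638 from 35 to 278 among high pools.

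Members singled out after their values were seen show the span of the first list. The member with the second largest mean difference was abundant: its counts were 9726, 4582, 2647, 1740, 4649 and 8247 in control pools 1 to 6. They were 2153, 2312, 2455, 1338, 3883 and 1792 in low pools, and 6808, 3630, 6069, 2429, 6911 and 5998 in high pools. Its low pools kept within 1338 to 3883, while control pools 1 and 6 were the highest of all 18. The mean difference of low from the mean of control and high was -1.10 on the log2 scale. The most abundant member averaged 5696 ± 3438 over control pools, 4189 ± 1803 over low pools and 5674 ± 2591 over high pools. In number 5 it had 4647 in the control and 4591 in the low pool, a narrow margin. The member with the smallest mean difference, -0.11, had 559 ± 59.7 in low and 605 ± 43.1 in high pools.

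The 73 genes highest at the low dose showed larger differences at lower abundance. The median of their mean differences was 0.41 for low minus control and 0.46 for low minus high on the log2(value + 1) scale, or 1.32-fold and 1.38-fold. The range against control was 0.12 to 1.36. The low pools exceeded the mean of control and high by more than 0.5 in 29 of 73 genes and by more than 1 in 2. The median count over the 73 genes was 87.2 in a control pool, 114 in a low pool and 82.0 in a high pool, again as means over 6 pools. The genes took 0.121 ± 0.0336% (SD, n = 6) of the counts of a control pool, 0.156 ± 0.0474% of a low pool's and 0.118 ± 0.0499% of a high pool's.

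ENSGACG00000008592 led the second list by its smallest gap. Its counts were 9, 55, 27, 50, 72 and 10 in control pools 1 to 6. In low pools they were 11, 107, 33, 59, 99 and 19, and in high pools 8, 60, 9, 37, 36 and 13. Numbers 1 and 6 were low in all groups, and the low pool of number 1 was below the control pools of numbers 2 to 5. Control pools averaged 37.2 ± 25.8 (SD, n = 6), low pools 54.7 ± 40.9 and high pools 27.2 ± 20.7, so the spread between numbers exceeded the difference between groups.

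ENSGACG00000004638 had counts of 69, 235, 73, 143, 99 and 73 in control pools 1 to 6. Low pools had 104, 323, 92, 184, 147 and 97, and high pools 79, 278, 35, 123, 68 and 65. Number 2 was the highest in every group. Low pools averaged 158 ± 88.3, against 115 ± 64.9 over control and 108 ± 88.0 over high pools. Low exceeded the mean of control and high by 0.34 in number 2 and by 0.85 in number 3 on the log2 scale.

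In the second list too some members were singled out after their values were seen. The member with the largest mean difference, 1.36, was rare and averaged 16.5 ± 17.0 over control pools, 30.2 ± 18.6 over low pools and 16.2 ± 20.6 over high pools. Its control pools had 11, 48, 0, 22, 9 and 9. The most abundant member had counts of 963, 2071, 601, 1576, 1626 and 1143 in control pools 1 to 6. Its low pools had 1342, 2292, 672, 1794, 1656 and 1415, and its high pools 1174, 1916, 241, 1334, 889 and 1387. High pool 3 was by far its lowest value, and number 5 again left a narrow margin between control and low.

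**Figure D2:**
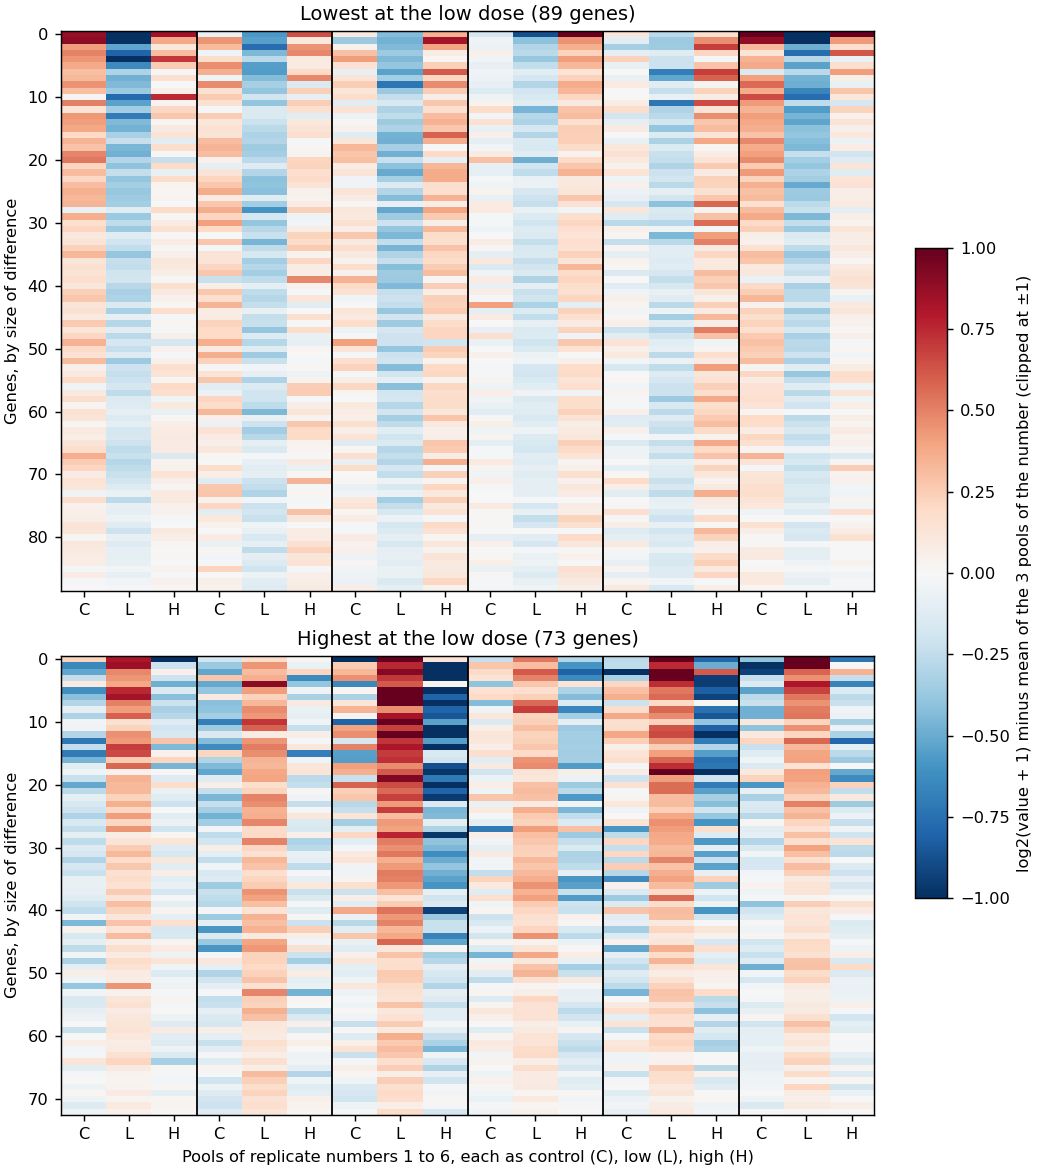
Each row is a member and each column a pool, ordered by replicate number 1 to 6 and within it as control, low and high; colour gives log2(value + 1) minus the mean of the 3 pools of that number, clipped at 1 either way. In the low columns all 89 genes of the upper panel lie below the mean of their number (blue). All 73 genes of the lower panel lie above it (red). The rule requires these directions but not their size, so cells with narrow gaps are close to white. The contrast between low and control is palest in numbers 4 and 5 of the upper panel.

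No member separated the groups as wholes. In 0 of 89 genes did all 6 low pools lie below all 12 others, where the share over all genes is 0%, and in 0 of 73 did they lie above (again 0% of all genes). The differences between numbers were larger. The replicate number held a median 74.8% of the variance of the log2 values in the first list and 74.4% in the second, against 80.1% over all genes. The dose group held 16.7% and 15.5%, against 4.21%, a share that the choice of the members raises.

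The gaps that made a gene a member were often narrow. The smallest of a gene's 6 gaps had a median of 0.041 on the log2 scale in the first list and 0.062 in the second. It fell in number 5 for 29 of 89 genes and in number 4 for 22 in the first list, and in number 4 for 20 of 73 in the second. Where the low value had to lie at least 2 units beyond both others, 82 and 57 genes were left. Just inside the rule, 34 genes of the first list and 33 of the second had control between low and high in 4 of 6 numbers. Their median low minus control was -0.29 and 0.38, and low minus high -0.37 and 0.55. Just outside it, with control between in 5 numbers, were 20 and 23 genes, with -0.26 and 0.44 against control and -0.42 and 0.69 against high. Low was the extreme in exactly 5 of 6 numbers for 717 and 737 genes. Of these, 627 and 661 had control between in fewer than 5 numbers, with median differences from control of -0.22 and 0.25. The lowest mean count of a member was 16.1 in the first list and 15.6 in the second, and the highest just under the minimum was 10.1 and 10.0.

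The size of the low dose difference was uneven over the numbers. In the first list the median low minus control was -0.42, -0.41, -0.36, -0.14, -0.14 and -0.45 in numbers 1 to 6. Numbers 4 and 5 thus had the smallest differences. Low minus high was more even, from -0.29 in number 6 to -0.43 in number 3. In the second list low minus control ran from 0.23 in number 4 to 0.44 in number 2, and low minus high from 0.22 in number 1 to 0.76 in number 3. Over all genes the medians of these differences lay within 0.0073 of 0 in every number.

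**Figure D3:**
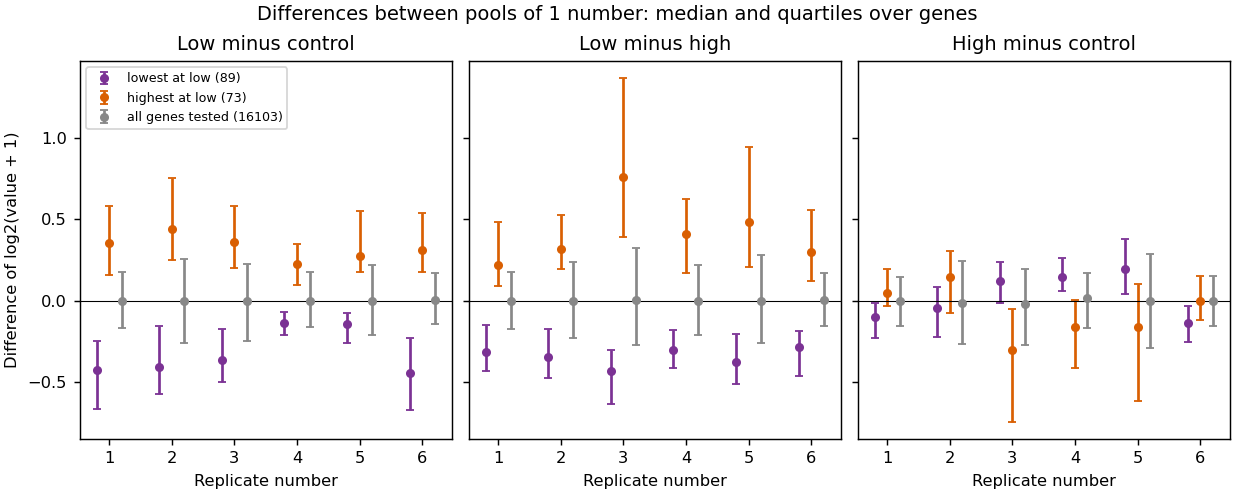
Differences of log2(value + 1) between pools of the same replicate number, as the median (point) and quartiles (bars) over the 89 genes lowest at low, the 73 genes highest at low and all 16103 genes. The first panels show what the rule selected; in the last, high minus control of the 89 genes is below 0 in numbers 1, 2 and 6 (medians of -0.10, -0.044 and -0.13) and above 0 in numbers 3 to 5 (0.12, 0.15 and 0.20).

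High and control pools, on the same side of low in every member, still differed from each other in a way that changed with the number. In the first list 69 of 89 genes were lower in high than in control in number 1 and 72 in number 6. In numbers 3, 4 and 5, by contrast, 63, 76 and 73 of 89 were higher in high. Over all genes, high was below control in 46.3% to 51.4%, depending on the number. The second list showed the mirror image in part: 44 and 49 of 73 genes were higher in high in numbers 1 and 2, whereas 56, 52 and 42 were lower in numbers 3, 4 and 5. In number 6 the second list was split, with 34 genes lower and 35 higher in high. Averaged over numbers the differences nearly cancelled, with medians of 0.038 and -0.071 (all genes -0.0087). The rule bears on this contrast, since it left out genes with control between in 5 or 6 numbers. In the first list high could thus exceed control in at most 4 of 6 numbers. In the second it could lie below control in at most 4. A sign that changed with the number, and an average near 0, were partly set by the choice. In 1 gene of the first list and 2 of the second, high lay between low and control in 6 of 6 numbers. The gene of the first list averaged 186 ± 39.4 (SD, n = 6) over control, 158 ± 49.7 over high and 123 ± 34.0 over low pools.

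The rule did not compare levels across replicate numbers, and there the lists differed from each other. Each level is still a mean of the same 3 pools whose order the rule used, so it is not independent of the choice. How far the choice set these levels was not tested, and they are given as a description. The 89 genes lowest at low were highest in numbers 3 and 5, where the mean of the 3 pools lay 0.33 and 0.28 (median over genes) above the gene's own mean on the log2 scale. In number 6 it lay at -0.36. For 40 of 89 genes number 3 had the highest level and for 31 number 5, against 17.5% and 19.3% of all genes. The 73 genes highest at low went the other way in number 3, at -0.61, and number 3 was the highest for 0 of 73. Numbers 2 and 6 were the highest for 26 and 22 of them, against 14.0% and 13.1% of all genes. Between numbers 1 and 6 together and numbers 3 to 5, a division taken from earlier results of these data, 15 of 89 and 52 of 73 genes had the higher level in 1 and 6, against 49.6% of all genes. The 3 pools of number 3 also had the most genes at 5 or below in their groups, at 738 in control, 597 in low and 1220 in high. The part of that in the second list was not tested.

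**Figure D4:**
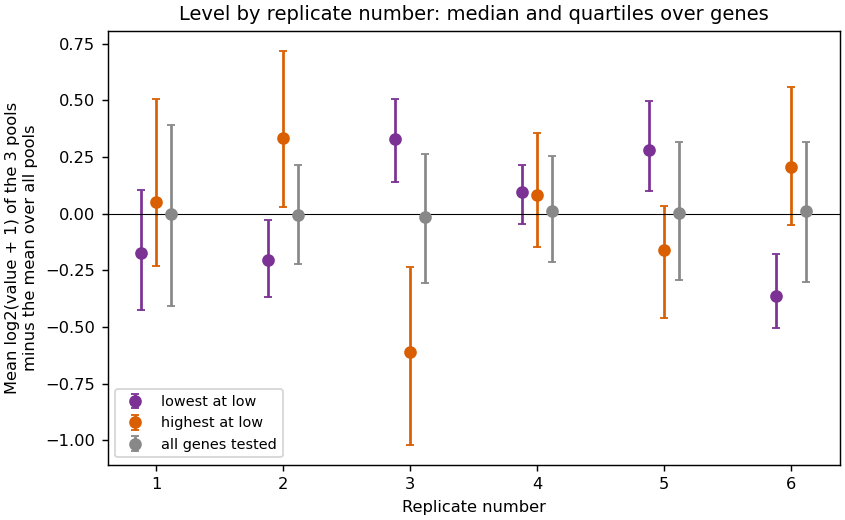
Level of each gene by replicate number, as the mean log2(value + 1) of the number's 3 pools minus the gene's mean over all pools; points are medians and bars quartiles over genes. The 89 genes lowest at low are above 0 in numbers 3 and 5 (0.33 and 0.28), the 73 genes highest at low are at -0.61 in number 3, and all genes together stay near 0.

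The lists also differed in abundance, on which the rule set only a minimum. The share of the 100 most abundant genes, lowest in low in 5 of 6 numbers, runs along with this. Its part was not tested. The median mean count was 507 (quartiles 196 and 951) in the first list and 101 (37.7 and 183) in the second, against 177 (62.5 and 454) over all genes. Means over 1000 were found in 22 of 89 and 2 of 73 genes, and in 11.1% of all genes. Means under 50 were found in 5 and 24, and in 20.8% of all. A value of 5 or less occurred in at least 1 pool for 3 of 89 and 11 of 73 genes, and for 6.05% of all.

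Leaving out 1 replicate number at a time gave an order of pools that the choice on the 5 others had not used. Genes in which low was the same extreme there too are all members, which the rule chose with every number. The shares for low thus restate the sizes of the lists and are no support apart from the rule. The minimum on the mean still used every pool, so the left-out number was not fully apart from the choice. Genes were chosen by the same rule in 5 numbers (leaving out those with control between in 4 or 5), and the left-out number was then read. Of the 87 genes with low lowest in numbers 2 to 6, low was also the lowest in number 1 for 68 (78.2%), where the share over all genes is 34.1%. In numbers 2, 3 and 6 the corresponding shares were 67.5%, 81.0% and 78.8%, against 32.0%, 35.5% and 31.6% of all genes. In number 4 low was the lowest for 43.0% of 200 genes (all genes 34.7%) and control for 45.0% (29.5%). In number 5 low was the lowest in 87 of 354 genes (24.6%, all genes 29.4%), and control was the lowest in 218 (61.6%, all genes 31.6%).

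Genes with low highest in the other numbers gave a similar picture, apart from a lower share in number 2. Low was the highest in left-out number 1 for 71.4% of 77 genes and in number 2 for 40% of 135. It was so for 63.9% of 108 genes in number 3, 44.8% of 163 in number 4 and 60.9% of 92 in number 6. All-gene shares lay between 32.3% and 35.2% in these numbers. Control was the highest in number 4 for 38.7% (all genes 25.9%). In number 5 low was the highest for 65 of 298 genes (21.8%, all genes 29.9%). Control was the highest there for 177 (59.4%, all genes 30.8%). For the 354 and 298 genes the median low minus control was 0.13 and -0.15 in number 5, opposite in sign to the -0.37 and 0.36 of the other numbers, while low minus high kept its sign at -0.18 and 0.19. Genes of 1 library vary together, so each share describes 1 number and carries no error of its own. Measures of the libraries also recurred over the numbers. Low libraries had the deepest estimate and the lowest column total in 5 of 6 numbers each. Their number of genes at 5 or below lay under the mean of the other groups in 6 of 6 and was the lowest of the 3 in 4. The part of these measures in the shares was not tested, so the shares are given as a description.

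**Figure D5:**
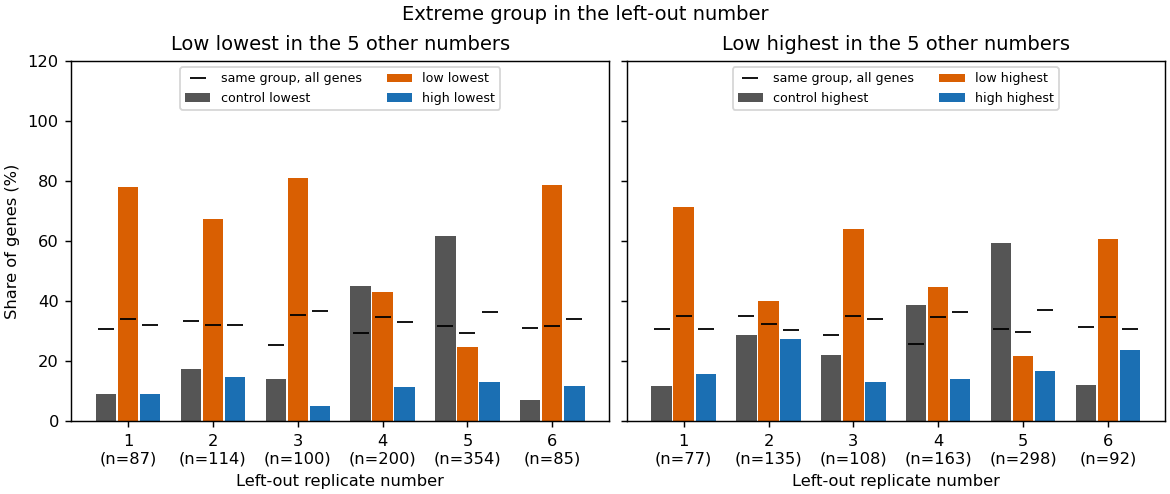
Share of genes (vertical axis, %) in which the control, low or high pool was the extreme one in a left-out replicate number. The order of pools in that number was left out of the choice, while the minimum on the mean used every pool. Genes with low as the same extreme there too are all members of the lists. Genes had low lowest (left) or highest (right) in the 5 other numbers. The count of genes chosen is n, and black dashes give the same share over all 16103 genes. Low leads in numbers 1, 2, 3 and 6 of both panels, whereas control leads in number 5, at 61.6% and 59.4%.

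A fit over all genes gives the background for the lists. Without a replicate block, limma called 0 of 16103 genes at an adjusted p under 0.05 in low against control, in low against high and in low against the mean of control and high, hence 0 of the members (0% of all genes). At an unadjusted p under 0.05 there were 78, 385 and 167 genes. The fit without a block leaves the differences between numbers in its error, a median 80.1% of the variance over all genes. Its 0 calls therefore say little about differences within numbers. With the replicate block, limma called 352 genes lower (2.19%) and 206 higher (1.28%) in low than in the mean of control and high. Of the members, 59 of 89 and 29 of 73 were among them. The rule used this contrast and the next ones, so nothing is read from the members' shares against those of all genes. In low against high, 62 of 89 members were called lower, where 4.35% of all genes were, and 38 of 73 higher, where 3.73% were. In low against control the blocked fit called 0 members and 0 genes (0%), with 1782 genes at an unadjusted p under 0.05. With sample weights as well, it called 66 of 89 members lower in low than in control, where 4.66% of all genes were, and 31 of 73 higher, where 1.97% were.

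These counts changed when single libraries were left out. They also changed when the estimated depth or the number of genes at 5 or less entered the fit. Calls over all genes changed as well and are given beside them. Against the mean of control and high, the members called lower were 18 without low pool 6 and 19 without low pool 1. They were 24 without low pool 3 and 71 without control pool 5. In that order, the calls lower in low over all 16103 genes were 64, 67, 108 and 722. Members called higher were 8, 8 and 6 without the same low pools, 17 without low pool 2 and 40 without control pool 5. Over all genes the calls higher in low were 40, 44, 46, 171 and 467. Against high, the members called lower were 31 without low pool 6, 35 without low pool 1 and 38 without low pool 3. They were 35 and 36 without high pools 3 and 5. In that order, the calls over all genes were 343, 361, 410, 374 and 373. Members called higher were 24 without low pool 6, 20 without low pool 3, and 20 and 18 without high pools 3 and 5. Over all genes the calls higher in low were 290, 282, 271 and 282. Against control, 38 lower and 9 higher members were called without control pool 5 (all genes 204 and 59). There were 26 and 3 without low pool 5 (all genes 151 and 18), and 5 and 0 without control pool 4 (all genes 5 and 0). With the estimated depth as a covariate, 0 members were called against the mean of control and high (all genes 1 lower, 0 higher). With the number of genes at 5 or less, 1 and 0 members were called (all genes 10 and 7). Against high, the 62 and 38 members called became 16 and 11 with the estimated depth (all genes 276 and 158). With the number of genes at 5 or less they became 3 and 2 (all genes 79 and 39). All-gene calls were 700 and 600 without a covariate.

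The scaling of the libraries set how many genes fell in each list. On the deposited values 54.9% of the members were in the first list. After division by the column totals the rule gave 53 genes lowest and 122 highest at low (30.3% lowest), of which 27 and 46 are members. That division moved low against the mean of control and high by 0.076 on the log2 scale in the median gene. The smallest such mean difference of any member was 0.11, and its sign changed in 0 members of either list. The rule on the order within numbers was still met by only the 27 and 46 members. Median-of-ratios factors gave 107 and 68 genes, with 85 and 65 members among them, and quantile normalisation 103 and 74, with 66 and 52.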

How the data were processed

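RNA-seq of 18 egg pools was analysed from 1 table. The authors deposited normalized counts, treated here as scores, that is, scaled and rounded whole numbers that are not raw counts, as the file name and the values show. The submitters' processing notes list, without roles, the aligners Bowtie2 2.1.0 and TopHat2 2.0.8, and HTSeq, edgeR, FastQC, Cuffdiff and Cufflinks 2.2.0. The genome build is not given in the sources used here. All genes exceed 5 in at least 2 samples. Median-of-ratios factors of the deposited columns lie close to 1.

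Depth was estimated by scanning values under 300 for the factor whose rounding leaves their pattern of skipped and doubled whole numbers, which stood out in 16 of 18 columns, and dividing the column total by it. Estimates run from 9.66 to 12.4 M reads and carry no error.

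The members follow the rule given in the report. They and the lists were chosen with earlier results of these data known, and the gene lists by symbol could not be applied. The genes named are the first 2 of each direction by their smallest gap over the 6 numbers on the log2(value + 1) scale, a gap being the distance from the low value to the nearer of the others. All 16103 genes past the minimum mean were fitted in limma 3.58.1 (R 4.3.3) on log2(value + 1) with a variance trend and Benjamini-Hochberg adjustment at 0.05. The contrast of low with the mean of control and high was fitted beside low against control and low against high. Procedures were tested on simulated data. Python 3.11.15 was used.

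The labels do not state that a replicate number marks a shared clutch. After removal of group means, same-numbered pools of different groups correlated at 0.67 to 0.90 (mean 0.78), and differently numbered ones at up to 0.76. In 36 of 36 comparisons a pool correlated best with its own number, so the numbers were taken to pair the pools. No 2 libraries shared more than 2.99% of their values.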

Additional observations from a re-analysis of the deposited data

Results flagged for a closer look

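Dixon's ratio was taken in 33 sets of 6 pools (4 genes, 5 library measures and the summed share of both lists, in each of 3 dose groups), and 4 sets had a pool past the 95% limit, where chance gives 1.65. ENSGACG00000009775, lowest at the low dose, had a count of 75 in control pool 3, against 33 to 45 in the other control pools. ENSGACG00000004638, highest at the low dose, had 278 in high pool 2, against 35 to 123 in the other high pools. Control pool 3 held 738 genes at 5 or below, while the others held 418 to 530. High pool 3 held 207 genes at 0, against 26 to 76 in the others.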

How the results depend on the processing

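The count of genes lowest at low was 89 and of genes highest at low 73. Division by the column total gave 53 and 122. Leaving out 1 replicate number gave 85 to 354 and 77 to 298: 354 and 298 without number 5, 200 and 163 without number 4, and 135 highest without number 2. The other 6 alternatives to the rule stayed within 1.5 times of both counts. The median difference from the mean of control and high was -0.33 in the first list and moved beyond the spread over numbers with column totals alone, to -0.26; that of the second, 0.43, did not. Without single numbers they ran from -0.35 to -0.32 and from 0.38 to 0.46.

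Without the replicate block 0 genes were called in each contrast. With the replicate block, low against high gave 1300 calls and low against the mean of control and high 558. All further values carry the block and give these contrasts in that order: 1288 and 549 with a pseudocount of 0.5, 1344 and 605 with 5, 1310 and 565 without a minimum on the mean, 1150 and 534 with a mean of at least 50, 1270 and 608 with quantile normalisation, 857 and 289 without the variance trend, 2491 and 2193 with sample weights, 434 and 1 with the estimated depth as a covariate, 118 and 17 with the number of genes at 5 or less, and 966 and 314 after division by the column total, an alternative added after the data were seen. Low against control gave 0 calls in each of these, apart from 1067 with sample weights. Without single libraries the ranges were 633 to 1579, 104 to 1189 and, for low against control, 0 to 263. The cause of these changes was not tested.

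The members rest on the order of 3 pools per number, and their gaps are often a few counts wide. Low libraries had the highest estimated depth and the lowest column total in 5 of 6 numbers each, neither past its test. The depth factors of low pool 4 and high pool 2 were not clear. No sample outside the rule was at hand.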
